A study of Mus musculus with 6 samples.

Results

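Imprinted genes are transcribed mainly from the copy of a single parent, and 40 imprinted genes of the mouse, chosen by name, were followed here in adult undifferentiated spermatogonia (A_undiff). All 40 were found among the 53657 gene names counted, and all 40 had enough fragments to be tested. At an adjusted p under 0.1 in edgeR, where 2 of 19656 tested genes were called (0.0102%), no member was called between wild-type and Hras G12V cells. The members ran from H19, among the most abundant transcripts per length, to Kcnq1ot1, near the bottom of the scale. Dlk1 and Grb10 were higher and Impact was lower in the mutant group at an unadjusted p under 0.05 (fold 1.26, 1.24 and 0.831 of the wild-type level), beside 2.78% of all tested genes in either direction.

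The study asked how induction of the constitutively active Ras allele Hras G12V alters A_undiff in the adult testis. All mice carried Gfra1-creERT2 and a tdTomato reporter and received repeated tamoxifen, and sorted tdTomato-positive, MCAM-bright cells were collected 3 months later. The MUT group (n = 3 samples) also carried a floxed FR-Hras G12V allele next to a normal Hras copy, and the WT group (n = 3 samples) consisted of littermates without that allele. The mice were adult and of a mixed genetic background of C57BL/6J with other strains. Cre activity under the Gfra1 promoter labels a mosaic of the undifferentiated pool, and the reporter and the Hras allele recombine separately. From variant calls in the reads of these samples, the study proposes that most sorted MUT cells carried Hras G12V. The reads were not analysed here. The labels name separate samples and the methods state 3 mice per group. Each sample gave between 22729292 and 23550433 assigned fragments. Counts for Hras itself were 1300, 1407 and 1542 in WT and 1600, 1594 and 1426 in MUT, and the groups overlapped (edgeR log2 fold change 0.14, adjusted p = 0.998). Gene counts do not separate the normal from the mutant Hras transcript, so this value is no check of recombination.

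In most tissues an imprinted gene is silenced on the maternal or the paternal chromosome according to DNA methylation of a control region, set in the germ line of that parent. In the male germ line the inherited marks are erased in primordial germ cells and the paternal pattern is laid down before birth, so that both chromosomes of an adult spermatogonium carry the marks of a sperm-forming cell. Regions such as H19-Igf2, Dlk1-Meg3 and Zdbf2 gain methylation in the male germ line, whereas most other control regions are methylated in the oocyte. The counts do not tell the parental alleles apart, and no methylation was measured. In bulk samples, fewer cells of a type and less RNA per cell cannot be told apart either.

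Promoter windows of the 250 bases before the start site were taken from RefSeq (build GRCm38.p6), where 33 of the 40 members had an entry, with 50 windows in all. The hexamer TGCCGC, the core recognised by the imprint protector ZFP57 when its CpG is methylated, was present on either strand in 8 of these 50 windows (16%), against 2850 of 32851 windows over all genes (8.68%). It lay in windows of 7 members, namely Zdbf2, Mcts2, Mest, Nap1l5, Zim1, Plagl1 and Meg3. The Mest windows before the starts at 30738050 and 30738053 overlap almost fully, and both were counted. The hexamer itself holds a CpG, and the median number of CpG sites was 10 in the windows of the members and 6 over all windows. The difference between the shares with the hexamer was not tested. The windows below are those of 4 genes to which the comparison of the groups returns. Each is read 5′ to 3′ along the gene with every CpG in capitals. They were chosen as promoters and not as control regions, and methylation of these CpG sites was not measured. They span chr12:109452573-109452822 (plus strand) for Dlk1, chr12:109540746-109540995 (plus strand) for Meg3, chr11:12037421-12037670 (minus strand) for Grb10 and chr6:58907127-58907376 (minus strand) for Nap1l5.
Dlk1: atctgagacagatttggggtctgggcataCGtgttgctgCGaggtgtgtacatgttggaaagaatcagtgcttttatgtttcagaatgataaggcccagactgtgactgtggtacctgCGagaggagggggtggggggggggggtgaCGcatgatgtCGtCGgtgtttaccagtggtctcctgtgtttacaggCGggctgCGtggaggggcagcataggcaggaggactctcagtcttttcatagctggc
Meg3: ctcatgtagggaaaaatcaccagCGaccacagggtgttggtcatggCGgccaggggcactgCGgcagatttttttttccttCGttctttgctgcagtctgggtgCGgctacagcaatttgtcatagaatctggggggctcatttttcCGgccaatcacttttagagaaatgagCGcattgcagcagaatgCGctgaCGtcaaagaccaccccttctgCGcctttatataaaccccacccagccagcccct
Grb10: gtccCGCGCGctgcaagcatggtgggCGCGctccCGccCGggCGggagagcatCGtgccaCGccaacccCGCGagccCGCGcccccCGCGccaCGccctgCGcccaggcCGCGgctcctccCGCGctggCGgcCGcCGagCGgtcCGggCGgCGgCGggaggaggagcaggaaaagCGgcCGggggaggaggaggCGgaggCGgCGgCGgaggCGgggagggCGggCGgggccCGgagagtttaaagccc
Nap1l5: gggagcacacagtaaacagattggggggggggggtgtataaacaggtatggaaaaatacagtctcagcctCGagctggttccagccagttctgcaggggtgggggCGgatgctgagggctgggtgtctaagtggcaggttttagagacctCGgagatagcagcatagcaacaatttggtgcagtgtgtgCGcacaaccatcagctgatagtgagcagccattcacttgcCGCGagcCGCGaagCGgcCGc
The Grb10 window shown held 40 CpG sites, compared with 8 for Dlk1 and 10 each for Meg3 and Nap1l5. RefSeq gives a second start for Grb10, whose window held 8 CpG sites, and for Meg3, whose window held 0. The windows shown for Meg3 and Nap1l5 each held the hexamer once, and it was not among the letters of the Dlk1 window, either Grb10 window or the other Meg3 window. A match is a description of the letters and not evidence of binding.

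Levels of different genes were compared as library-size-normalized counts (CPM) per kilobase of exon, averaged over the 6 samples. On this scale the median member stood at 2.76, against 3.9 over all 19656 tested genes. H19, a maternally expressed long noncoding RNA, was first at 54.1 ± 5.86 (SD, n = 6), the 95.9th percentile of tested genes. Igf2r, the receptor that clears insulin-like growth factor 2, followed at 22.7 ± 3.13, and its range over the samples overlapped that of Inpp5f, a phosphoinositide phosphatase, at 20.8 ± 1.93. Mcts2, a retrogene within an intron of H13, reached 19 ± 1.51, and Blcap, a small protein first described in bladder cancer, 17.6 ± 0.641. Fragments that also match the parent gene of a retrogene were left out of the counts, so the level of Mcts2 is uncertain. Transcripts of 6 macrophage markers summed to between 445.3 and 768.1 CPM in the 6 samples. The part of somatic cells in the H19 level was not tested.

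Grb10, an adaptor that restrains insulin and IGF receptor signalling, stood at 10.5 ± 1.97 CPM per kb. Dlk1, a transmembrane protein related to Notch ligands, stood at 9.04 ± 1.6, and Impact, an inhibitor of the eIF2α kinase GCN2, at 8.95 ± 1.29. Ndn (8.36), the placental growth regulator Phlda2 (8.3), the signal peptide peptidase H13 (7.85) and Zdbf2 (6.41) completed the members above the next gap. Along the whole order the ranges over the 6 samples of neighbouring members overlapped, with gaps only below H19, Blcap, Zdbf2 and Peg3.

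The middle of the order held genes with roles in splicing, ubiquitin transfer and transcription. Snrpn, a spliceosomal protein, stood at 4.17 ± 0.504 CPM per kb, Mest, a hydrolase-like protein, at 3.79 ± 0.437, the ubiquitin ligase Ube3a at 3.52 ± 0.25, the retrotransposon-derived Peg10 at 2.85 ± 0.239 and the zinc-finger gene Peg3 at 2.37 ± 0.207. These members share exon bases with other genes to unequal degrees (34.1% of Snrpn with Snurf and 2 further annotated genes, 27.3% of Ube3a with Snhg14 and 2 others, 23.1% of Mest with Copg2), and fragments that touched more than 1 gene were not counted. The growth factor Igf2 was the member most affected, since 64.5% of its exon bases are shared with Igf2os and another gene. Its mean level was 1.43 CPM per kb over the full exon length and 4.03 over the bases that no other gene shares, which moved it from place 25 to place 18.

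Nnat, a small proteolipid, was close to Snrpn at 4.21 ± 0.446 CPM per kb, as was the vesicle tethering subunit Trappc9 at 4.14 ± 0.243. Peg13, a noncoding RNA within an intron of Trappc9, stood at 1.47 ± 0.207. The ring-finger gene Mkrn3 (2.8 ± 0.138), the actin-binding Ppp1r9a (2.71 ± 0.332) and Rian (3.13 ± 0.235) lay near Peg10. Gnas (1.67 ± 0.241), the transporter Slc22a18 (1.27 ± 0.154) and the zinc-finger gene Plagl1 (1.13 ± 0.159) followed. Below 1 CPM per kb were Nap1l5 (0.974), Meg3 (0.683), the zinc-finger gene Zim1 (0.561), the sarcoglycan gene Sgce (0.498), Ddc (0.49), the potassium channel Kcnq1 (0.37), Asb4 (0.359) and Mirg (0.278). Counting only fragments unique to a gene left 22% of the exon bases of Gnas, shared with Nespas and another gene, without counts.

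At the low end were the long noncoding RNAs Airn at 0.18 ± 0.0463 and Kcnq1ot1 at 0.108 ± 0.0196 CPM per kb, with Magel2 at 0.143, the deubiquitinase gene Usp29 at 0.141 and the cation transporter Slc22a3 at 0.115. Kcnq1ot1 is annotated as a transcript of 93092 exon bases, and its level in CPM without the division by length was 10.3 ± 1.58 in WT and 9.78 ± 2.36 in MUT (SD, n = 3). Counts of Slc22a3 were 15, 3 and 13 in WT and 4, 8 and 13 in MUT, close to the limit of detection at this depth. No member had 3 or fewer counts in every sample.

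**Figure D1:**
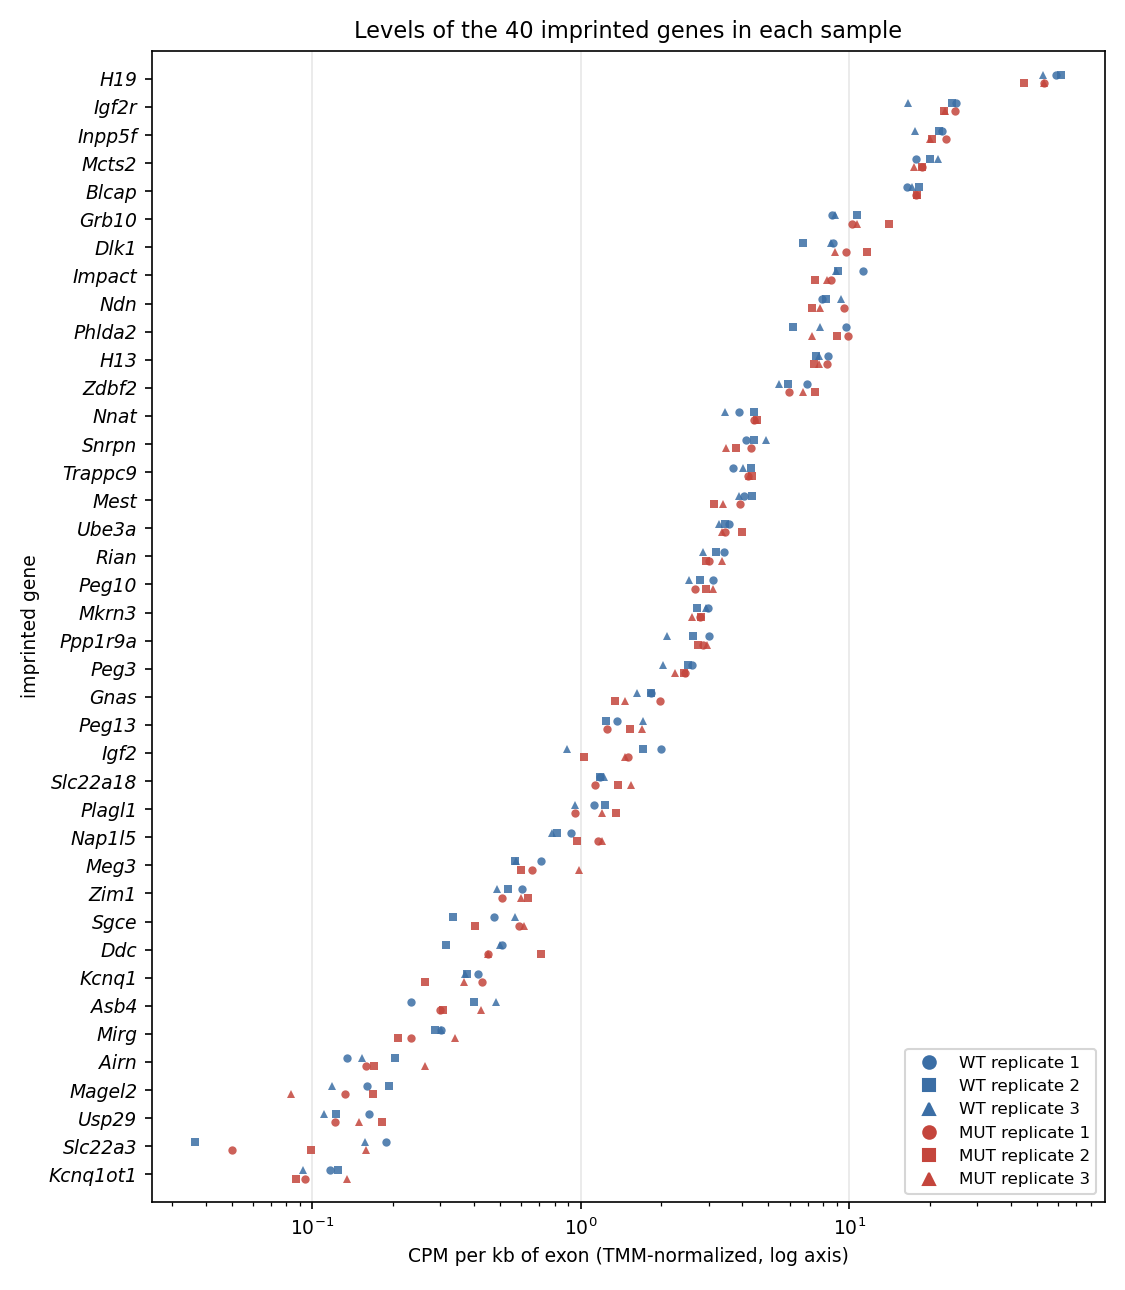
Level of each of the 40 imprinted genes in CPM per kb of exon (x axis, log scale) in the 3 WT (blue) and 3 MUT (red) samples, ordered by the mean over the 6 samples. H19 stands apart at the top (54.1) and Kcnq1ot1 is last (0.108), and the groups overlap for 37 of the 40 genes.

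Neighbours under a shared control region differed widely in level. Per kb, Igf2r exceeded its antisense noncoding RNA Airn by between 86.9 and 187.0 times in the 6 samples, and H19 exceeded Igf2 by between 29.6 and 59.7 times. Over the exon bases that no other gene shares, the ratio of H19 to Igf2 was between 11.6 and 23.3. Ndn exceeded Magel2, a related MAGE family gene next to it, by between 42.2 and 94.2 times. Peg3 exceeded Usp29 by between 13.3 and 20.4 times, although the RefSeq start sites of this divergent pair lie 164 bases apart. In contrast, H13 was below Mcts2, the retrogene it hosts, with a ratio between 0.36 and 0.469. Fragments from introns of H13 or Igf2r can be counted for Mcts2 or Airn, and their part was not tested.

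The groups overlapped for all but 2 of the 16 ratios computed between neighbours. The ratio of Meg3 to Mirg, both noncoding RNAs of the Dlk1-Meg3 region, was 2.38, 1.97 and 1.91 in WT and 2.82, 2.88 and 2.89 in MUT. The ratio of Blcap to Nnat, the neuronatin gene within an intron of Blcap, was 4.24, 4.12 and 4.97 in WT and 4, 3.94 and 3.96 in MUT. For both, the exact two-sided permutation test gave p = 0.1 (0.8 after Benjamini-Hochberg adjustment over the 16 ratios). This is the smallest p that 3 against 3 samples allow, and groups that do not overlap always give it.

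H19, Igf2, Dlk1, Meg3, Rian and Mirg belong to the regions methylated on the paternal chromosome. H19 (chr7:142575529-142578143, minus strand, exon bases 9.15% shared with Mir675 and 2 further small genes) was measured at 144.7, 152.1 and 130 CPM in WT and at 130.7, 110.2 and 131 CPM in MUT. The lowest WT sample lay just below the highest MUT samples, so that the groups touched. The means were 142.3 ± 11.2 and 124 ± 11.9 CPM (SD, n = 3 each), with a log2 fold change of -0.20 (SE 0.092, unadjusted p = 0.061, adjusted p = 0.998 in edgeR). With 1 sample left out, the log2 fold change ranged from -0.26 without WT replicate 3 (unadjusted p = 0.0145 in edgeR) to -0.13 without MUT replicate 2. Among the fits with all 6 samples, the unadjusted p of H19 was under 0.05 only with at least 10 counts in every sample (log2 fold change -0.21).

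Igf2 (chr7:142650766-142666816, minus strand) ranged from 5.07 to 11.4 CPM in WT and from 5.9 to 8.57 CPM in MUT, with WT replicate 3 the lowest of all samples. Its log2 fold change was -0.20 with an SE of 0.289, and it was -0.47 without WT replicate 3 (unadjusted p = 0.0402 in edgeR). The direction of Igf2 thus turned on single samples, since without WT replicate 1 the value was 0.027.

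Dlk1 (chr12:109452823-109463336, plus strand) was measured at 49.3, 38.2 and 48.3 CPM in WT and at 55.3, 65.7 and 50.1 CPM in MUT. Every MUT sample lay above every WT sample, although MUT replicate 3 exceeded WT replicate 1 only slightly. Mean levels were 45.2 ± 6.15 and 57 ± 7.9 CPM, a log2 fold change of 0.33 (SE 0.128, 95% interval 0.042 to 0.63, unadjusted p = 0.0297, adjusted p = 0.998 in edgeR). The log2 fold change was 0.21 without WT replicate 2, 0.21 without MUT replicate 2 and 0.35 without MUT replicate 1, and in these 3 fits the unadjusted p did not pass 0.05.

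Meg3 (chr12:109541001-109571726, plus strand), a noncoding RNA expressed opposite to Dlk1 in somatic tissues, was at 12.9, 10.3 and 10.4 CPM in WT and at 11.9, 10.8 and 17.8 CPM in MUT. MUT replicate 3 stood above the other 5 samples, and the log2 fold change of 0.27 (SE 0.2) became 0.026 without it. In the same sample all 6 Leydig cell markers were at their highest, with a summed level of 67.3 CPM against 12.9 to 21.1 CPM elsewhere, and the summed level of 4 peritubular myoid markers was highest there too (9.7 CPM against 4.94 to 7.09). Cells were sorted on tdTomato, driven by Gfra1-creERT2, while macrophage markers summed to between 445.3 and 768.1 CPM in the 6 samples. The part of somatic cells in the Meg3 value was not tested. Rian, a host of small nucleolar RNAs and microRNAs, was at 57.5 ± 5.21 CPM in WT and 56.6 ± 4.28 in MUT (log2 fold change -0.021). Mirg, a microRNA host, was at 2.19, 2.09 and 2.2 CPM in WT and at 1.7, 1.52 and 2.48 CPM in MUT, again with MUT replicate 3 the highest. Its log2 fold change was -0.18 with all samples, -0.42 without MUT replicate 3 (unadjusted p = 0.102 in edgeR) and -0.057 without MUT replicate 2.

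**Figure D2:**
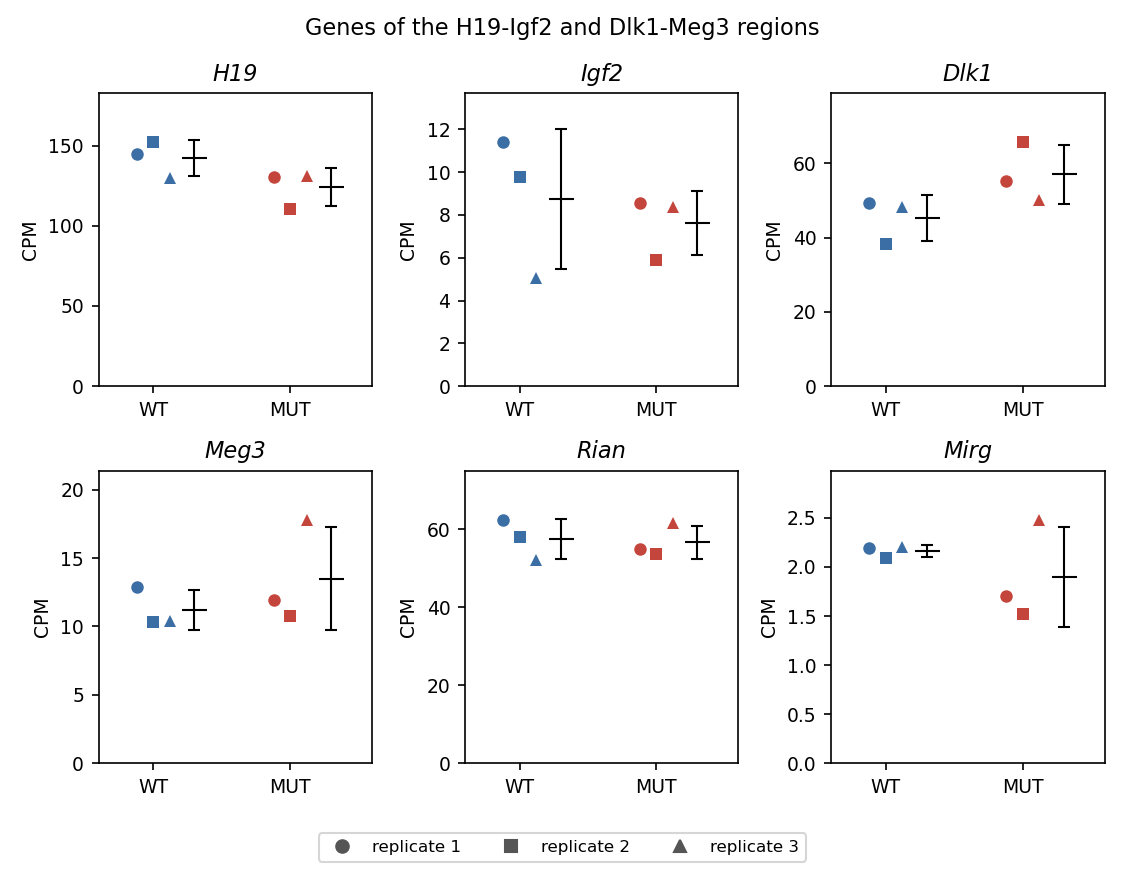
CPM (y axes, each from 0) of 6 genes of the H19-Igf2 and Dlk1-Meg3 regions in the WT and MUT samples, with symbols for the replicate number and bars for the mean ± SD (n = 3). Every MUT sample exceeds every WT sample for Dlk1 alone, and MUT replicate 3 is the highest for Meg3 (17.8) and Mirg (2.48).

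Zdbf2, a zinc-finger gene with a control region methylated in the male germ line, completed this group of 7. It was at 77.4 ± 9.58 CPM in WT and 84.9 ± 9.23 in MUT (log2 fold change 0.13, unadjusted p = 0.256 in edgeR). Of the 7 members, 3 had a positive and 4 a negative log2 fold change, and the median was -0.021. The median of the other 33 members was 0.05.

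None of the 40 members passed an adjusted p of 0.1 in edgeR (smallest adjusted p = 0.998), and the 2 genes called (0.0102%) lay outside the list. DESeq2, the tool of the study, called no member either and 9 of 37285 genes (0.0241%). Pairing the samples by replicate number brought the calls over all genes to 13 in edgeR (0.0661%) and 55 in DESeq2 (0.148%), again with no member among them. At an unadjusted p under 0.05 the edgeR fit gave 3 of 40 members, 2 higher and 1 lower in MUT, beside 547 tested genes (2.78%), of which 1.34% of all tested genes were higher and 1.44% lower. DESeq2 gave 2 of 40, Dlk1 and Grb10, at that p, beside 1.17% of its genes. In the paired fits the unadjusted p was under 0.05 for the same 3 members in edgeR (6.6% of tested genes) and for Dlk1 and Grb10 in DESeq2 (1.64%). The 37285 genes of DESeq2 include many with very few counts that the edgeR filter removed, so its shares are an unlike background for the members. The groups did not overlap for 3 members (Dlk1 and Nap1l5 above, Impact below WT), beside 4.69% of tested genes with MUT above WT, 3% with MUT below and 7.69% in either direction.

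Grb10 (chr11:11930508-12038683, minus strand) was measured at 78.5, 97.4 and 80.3 CPM in WT and at 93, 128.2 and 97.2 CPM in MUT. WT replicate 2 exceeded 2 of the MUT samples, so the groups overlapped, while within each replicate number the MUT sample was the higher. The means were 85.4 ± 10.4 and 106.1 ± 19.2 CPM, with a log2 fold change of 0.31 (SE 0.135, unadjusted p = 0.0474 in edgeR). In the fit paired by replicate number its unadjusted p was 0.00197 and its adjusted p was 0.256 in edgeR. The log2 fold change was 0.14 without MUT replicate 2, and 0.25 and 0.27 without WT replicate 1 and WT replicate 3. The unadjusted p did not pass 0.05 in these 3 fits, in limma voom (0.30), with DESeq2 size factors in edgeR (0.31) or with at least 10 counts per sample (0.30). Its neighbour Ddc, which makes dopamine and serotonin from their amino acid precursors, was low in both groups (1.97 ± 0.489 and 2.4 ± 0.668 CPM, log2 fold change 0.28, unadjusted p = 0.346 in edgeR).

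Impact (chr18:12972252-12992948, plus strand) was at 38.8, 31.3 and 30.6 CPM in WT and at 29.5, 25.6 and 28.5 CPM in MUT. All MUT samples lay below all WT samples, with the gap between WT replicate 3 and MUT replicate 1 small beside the spread within WT. The log2 fold change was -0.27 (SE 0.113, 95% interval -0.53 to -0.0082, unadjusted p = 0.0445, adjusted p = 0.998 in edgeR). In DESeq2 the unadjusted p was 0.0557, and in edgeR it did not pass 0.05 without WT replicate 1 (log2 fold change -0.16), MUT replicate 2 (-0.22) or MUT replicate 3 (-0.28).

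Nap1l5 (chr6:58905233-58907076, minus strand), a retrogene of the nucleosome assembly protein family, had 39, 35 and 34 counts in WT and 49, 41 and 52 in MUT. The groups did not overlap in CPM (1.55 ± 0.141 against 2.05 ± 0.237), and its log2 fold change of 0.41 was the highest of the members. At this depth the difference did not pass the unadjusted threshold (SE 0.207, unadjusted p = 0.0839 in edgeR). The exact permutation test gave its smallest possible value, p = 0.1, which groups that do not overlap always give.

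**Figure D3:**
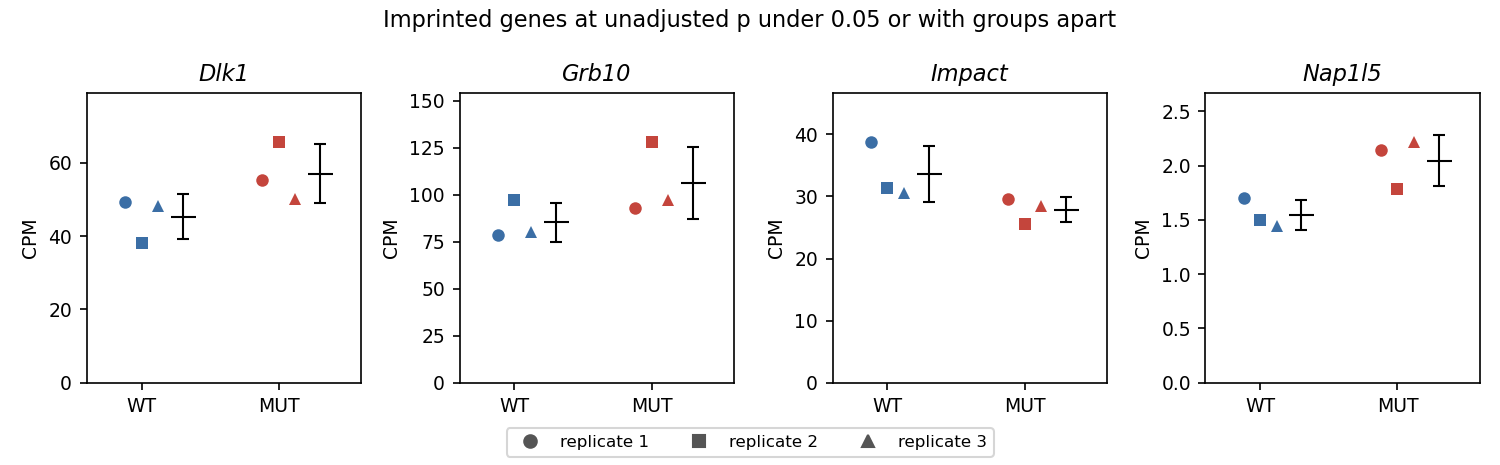
CPM (y axes, each from 0) of Dlk1, Grb10, Impact and Nap1l5 in the 3 WT and 3 MUT samples, with symbols for the replicate number and bars for the mean ± SD. Dlk1 and Nap1l5 are higher and Impact is lower in every MUT sample, whereas the WT sample of replicate 2 overlaps the MUT samples for Grb10.

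The direction of the 40 log2 fold changes (MUT over WT) was nearly even, with 22 positive and 18 negative values. Their median was 0.046, beside 0.0066 over all tested genes. With 1 sample left out, this median ranged from 0.0037 without WT replicate 3 (all tested genes 0.01) to 0.065 without WT replicate 1 (all tested genes -0.0096), and was 0.025, 0.02 and 0.016 without WT replicate 2, MUT replicate 2 and MUT replicate 3. With all samples the values ran from -0.30 for Magel2 and Slc22a3 to 0.41 for Nap1l5. Among the 15 members expressed from the maternal allele in somatic tissues, 8 values were positive and 7 negative (median 0.074), and none had an unadjusted p under 0.05. The 20 members expressed from the paternal allele divided into 10 positive and 10 negative (median 0.022), with Dlk1 higher and Impact lower at the unadjusted threshold. Of the 5 members whose active allele depends on tissue or isoform, 4 were positive and Gnas, the gene of the stimulatory G protein alpha subunit, was negative (-0.14, unadjusted p = 0.373 in edgeR).

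For 37 of the 40 members the 95% interval of the difference lay within a 2-fold change in either direction, against 81.6% of all tested genes. The 3 exceptions, Airn, Magel2 and Slc22a3, had among the lowest counts, and their intervals do not exclude a change of over 2-fold. Blcap had the narrowest interval (-0.11 to 0.20), at 52.6 ± 2.73 CPM in WT and 54.2 ± 0.363 in MUT. H13 was next (-0.18 to 0.15), at 70 ± 3.76 and 69.4 ± 3.99 CPM. Igf2r, the member with the highest mean CPM, had a wider interval (-0.24 to 0.41).

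**Figure D4:**
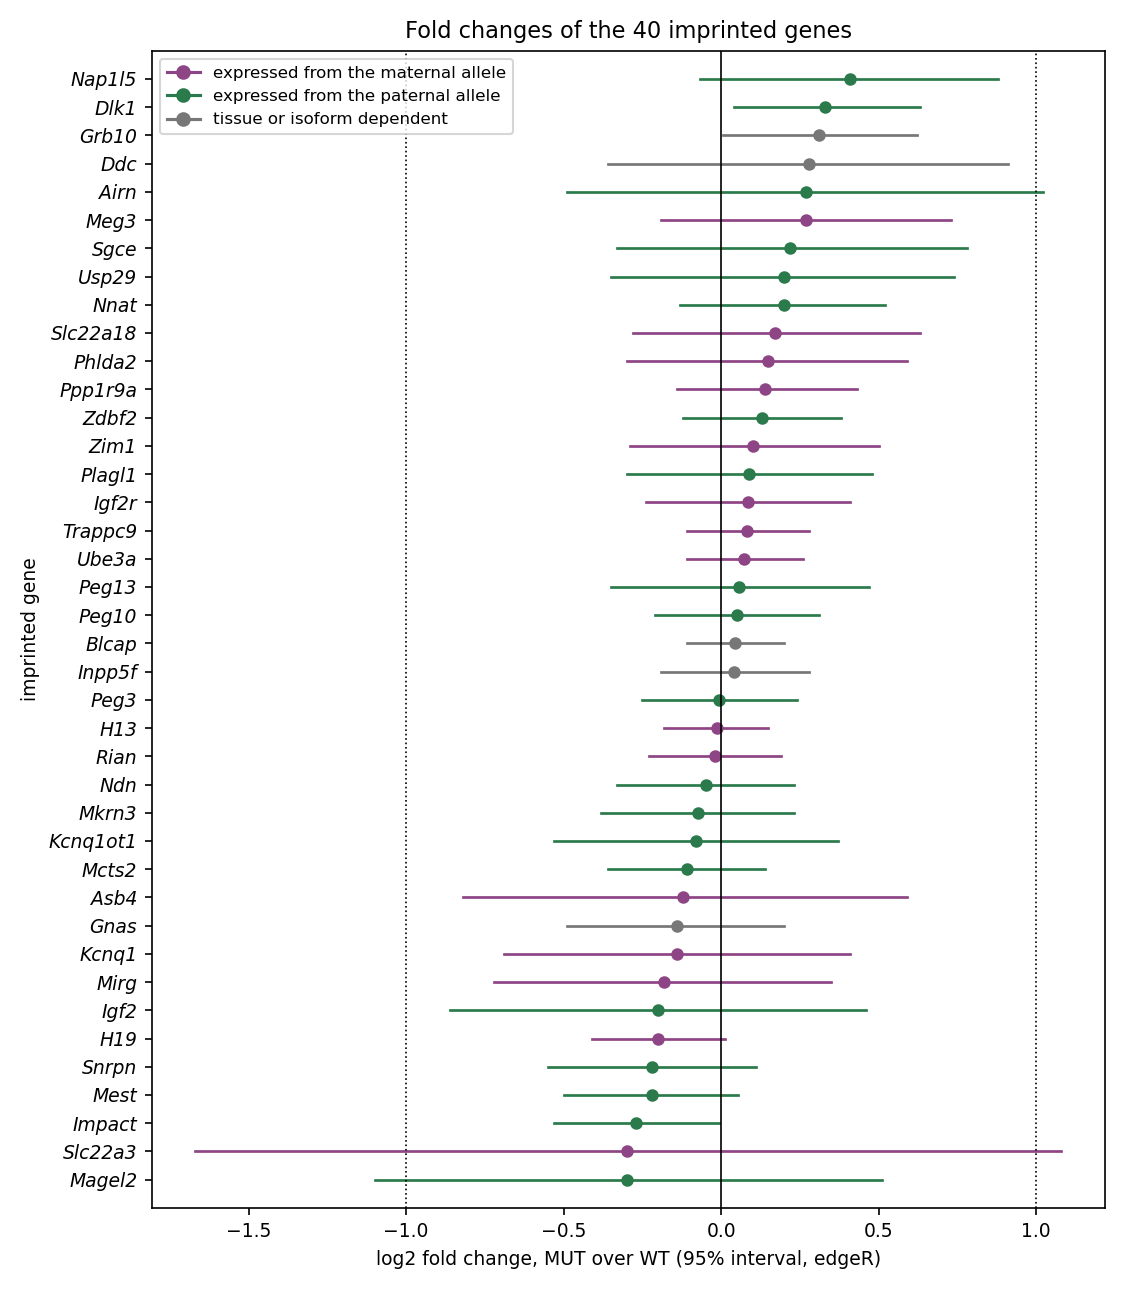
Log2 fold change (MUT over WT) of the 40 imprinted genes with its 95% interval from edgeR, coloured by the allele expressed in somatic tissues. Dotted lines mark 2-fold changes, the values run from -0.30 to 0.41, and only the intervals of Airn, Magel2 and Slc22a3 cross a dotted line.

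Several members varied more between WT samples than between groups. Igf2r was at 236.8, 229.1 and 157 CPM in WT and at 233.2, 212.4 and 215.2 CPM in MUT, so that WT replicate 3 stood below the other 5 samples. The same sample was the lowest for 14 of the 40 members (35%, against 27% of all tested genes) and the highest for 4 (10%, against 26.7%). In WT replicate 3 the summed level of 8 markers of undifferentiated spermatogonia was 1455 CPM, against 1699 to 2003 CPM in the other samples, and the summed level of 6 macrophage markers was 768.1 CPM, against 445.3 to 585.8 CPM. Markers of spermatocytes and spermatids were also highest there (807.5 CPM against 452.8 to 642 CPM), and the part of these cells in the members' values was not tested. Markers of germ cells summed to between 1783 and 1903 CPM, those of Sertoli cells to between 22.9 and 41.8 CPM, of endothelial cells to between 43.8 and 58.3 CPM and of peritubular myoid cells to between 4.94 and 9.7 CPM. Every marker gene of these lists was above 3 counts in some sample.

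The 40 members together held 0.138%, 0.136% and 0.124% of the counts in the WT samples and 0.135% in each MUT sample. MUT replicate 2 was the highest sample for 10 members (25%, against 16.1% of all tested genes) and WT replicate 1 for 9 (22.5%, against 16.6%). MUT replicate 3 was the highest for 8 (20%, against 14.6%), namely Airn, Kcnq1ot1, Slc22a18, Meg3, Mirg, Peg10, Sgce and Nap1l5.

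Of 32 further imprinted genes, 31 were named in the files, 26 were tested, and none was called. Ago2, an Argonaute protein of microRNA silencing, was at 14.6, 16.2 and 14.9 CPM in WT and at 18.9, 17.5 and 17.6 CPM in MUT, and was the only gene of this list with an unadjusted p under 0.05 (log2 fold change 0.24, SE 0.102, unadjusted p = 0.0453, adjusted p = 0.998 in edgeR). That is 1 of 26 genes, beside 2.78% of all tested genes. All MUT samples exceeded all WT samples for Ago2. The opposite held for Snhg14, a host of small nucleolar RNAs that runs antisense to Ube3a, at 9.92, 7.56 and 9.04 CPM in WT and 7.39, 7.07 and 6.75 CPM in MUT (log2 fold change -0.32, unadjusted p = 0.0596 in edgeR). Groups that did not overlap made up 7.69% of all tested genes. Over the 26 genes, 17 values were positive and 9 negative, with a median of 0.022.

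Of 20 genes that establish, maintain or remove imprints, all were tested and none was called or had an unadjusted edgeR p under 0.05. Dnmt1, the maintenance DNA methyltransferase, was at 688.5 ± 96.9 CPM in WT and 755.3 ± 50 in MUT, and Trim28, the corepressor recruited by ZFP57, at 602.9 ± 27.6 and 603.4 ± 30.5 CPM. Zfp57 itself was low, at 5.66 ± 1.23 and 6.17 ± 0.581 CPM. The log2 fold change was positive for 19 of the 20 genes (median 0.11), against 51.8% of all tested genes (median 0.0066), with Tet3 the highest at 0.34 and Tet2 the single negative value at -0.32. WT replicate 3 was the lowest sample for 13 of the 20, against 27% of all tested genes. Dnmt1 was at 577.2 CPM there (698.6 to 793.1 elsewhere) and Tet3 at 131.9 CPM (180.7 to 238.6 elsewhere). Without WT replicate 3, 15 values were positive, 5 were negative and the median was 0.033 (all tested genes 53.1% positive, median 0.01). With any other sample left out, 16 to 19 values were positive and the median was 0.089 to 0.13. For Dnmt3l, the cofactor of de novo methylation in germ cells, the MUT samples (4.02 ± 0.195 CPM) lay above the WT samples (3.32 ± 0.211 CPM) with unadjusted p = 0.121 in edgeR.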

How the data were processed

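Poly(A) RNA of sorted A_undiff from 3 WT and 3 MUT mice was sequenced as paired-end reads from a stranded kit. Per the labels and file headers, the authors checked reads with FastQC, aligned them with STAR to GRCm38.p6 (versions not given in the sources used here) and made the deposited raw fragment counts per gene name with featureCounts 1.6.2, GENCODE vM17 and a tdTomato sequence. No strand option was set, and multi-mapping fragments and those touching several genes were left out, so overlapping antisense genes lose fragments. Fragments from an intron can also be counted for another gene with exons there, on either strand. Library totals were 22729292 to 23550433 counts.

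Groups came from the sample titles. Counts were fitted with edgeR 4.0.16 (quasi-likelihood, TMM, filterByExpr, genotype only, R 4.3.3), with Benjamini-Hochberg adjustment over 19656 genes and an FDR of 0.1. P-values measure the spread between these samples. CPM are TMM-normalized. Alternatives were DESeq2 1.42.0 (its size factors also within edgeR), limma voom 3.58.1, no filter, at least 10 counts in every sample, FDR 0.05, a replicate block, and leaving out each sample. The fitting code was tested on simulated data. The block took samples of the same replicate number as pairs, but neither the titles nor the methods say which samples were littermates. Deviations from the group means correlated at 0.316, 0.192 and 0.395 for numbers 1, 2 and 3 over 10582 genes above 10 CPM. WT replicate 2 and MUT replicate 1 correlated at 0.324, so these correlations do not settle the pairing. The members and gene lists were chosen with earlier results of these data known. Values were given in full for the members highest per kb, those with an unadjusted p under 0.05 or with groups apart, and those of the H19-Igf2 and Dlk1-Meg3 regions. Motif matches were counted on both strands.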

Additional observations from a re-analysis of the deposited data

How the results depend on the processing

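No member was called at FDR 0.1 under any of the 13 alternatives, and 24 of the 40 kept the sign of the log2 fold change in all of them. The number of all tested genes called, 2 in edgeR, was 9 with DESeq2, 4 with limma voom, 5 with no filter, 1 at FDR 0.05, and 0 once each sample needed 10 counts (479 of the remaining genes reached an unadjusted p under 0.05). Under the replicate block it rose to 13 in edgeR, 55 in DESeq2, and this block changed no other call. Leaving out 1 sample gave 0 (without MUT replicate 2, with 292 at unadjusted p) to 6 (without MUT replicate 3), with 1 without MUT replicate 1 and 5 without WT replicate 3. Members at an unadjusted p under 0.05 numbered 3 in edgeR, beside 2.78% of all tested genes. Without MUT replicate 2 there were 0 (beside 1.44%), and without WT replicate 1 there was 1 (2.87%). There were 2 without WT replicate 2 (3.24%) or MUT replicate 3 (8.64%), and 4 without WT replicate 3 (3.63%) or MUT replicate 1 (2.01%). The causes were not tested.

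Peg3, at -0.0062, turned to 0.002 with limma voom and to 0.00022 (edgeR) and 0.0018 (DESeq2) under the replicate block, the only sign change with all 6 samples. With 1 sample left out the log2 fold change of 16 members crossed 0. It ran for Igf2 from -0.47 to 0.027, for Igf2r from -0.081 to 0.18, for Kcnq1 from -0.30 to 0.017, for Kcnq1ot1 from -0.30 to 0.024, for Phlda2 from -0.015 to 0.31, for Rian from -0.088 to 0.034, for Peg3 from -0.11 to 0.054, for Peg10 from -0.019 to 0.12, for Ndn from -0.18 to 0.028, for Ube3a from -0.019 to 0.12, for Plagl1 from -0.043 to 0.21, for Slc22a3 from -0.75 to 0.076, for Inpp5f from -0.059 to 0.095, for Peg13 from -0.05 to 0.20, for H13 from -0.064 to 0.023 and for Asb4 from -0.37 to 0.11. The level per kb of 6 members moved by over 1 SD when shared exon bases were left out. The intervals of Airn, Magel2 and Slc22a3, genes of few counts, reach past 2-fold, and Magel2 and Slc22a3 had no value with at least 10 counts in every sample.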
